A study of Mus musculus with 16 samples.

Results

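Of 12 mouse leukemias profiled on expression arrays, 3 carried little Pax5 transcript, and these are set here against the other 9. A leukemia was placed in the low-Pax5 group when its Pax5 probe set read under 9 on the log2 scale, so the 3 members were chosen by their own array values. They are replicates 1 and 5 of the 6 Bank1+/- Pax5+/- leukemias and replicate 3 of the 6 Pax5+/- leukemias. The whole series holds 16 arrays, and the remaining 4, of pro-B and pre-B cells from wild-type (WT) marrow, serve only as a reference level.

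The series was made to test Bank1 as a tumor suppressor in B cell precursor leukemia, a malignancy of immature B cells. Each array was hybridised with biotin-labelled total RNA, taken from leukemic bone marrow of mice that are either Pax5+/- (Pax5 leukemia) or Bank1+/- and Pax5+/- (Bank1/Pax5 leukemia), or from WT bone marrow precursors. All 12 leukemias therefore arose in animals with a single intact Pax5 allele, low-Pax5 and other alike, and the mice were kept in a conventional facility where they met common pathogens. Total bone marrow is the labelled tissue of the leukemias and a precursor fraction that of WT; the sources used here do not give strain, age or the state of the remaining Pax5 allele. Replicates are labelled biological, 1 array each, while the design text names 3 WT mice for 4 WT arrays. WT arrays carry a leukemic cell type label that goes against their other labels, and they were taken as WT.

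Pax5 is the transcription factor that commits lymphoid progenitors to the B lineage. It switches on genes of B cell identity, among them components of the B cell receptor, and holds down genes of other blood lineages, so that precursors lacking it keep the ability to become myeloid or T cells. In B cell precursor leukemia Pax5 is often hit by mutation or deletion, and Pax5+/- mice exposed to infection are used as a model of that disease. Total marrow also holds granulocytes, monocytes, erythroid cells and other residents beside the leukemic blasts.

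The values that chose the members were as follows. Pax5 read 7.85 in Bank1/Pax5 leukemia 1, 8.02 in Bank1/Pax5 leukemia 5 and 7.52 in Pax5 leukemia 3, on the log2 scale of probe set intensity. In the other 9 it ran from 9.92 through a median of 11.25 to 12.21, and in the 4 WT arrays it read 11.9, 11.85, 11.98 and 12.12. Just inside the threshold lay Bank1/Pax5 leukemia 5 at 8.02, and just outside lay Bank1/Pax5 leukemia 4 at 9.92, followed by Bank1/Pax5 leukemia 6 at 10.22. The low group averaged 7.8 ± 0.25 (SD, n = 3) and the other leukemias 11.24 ± 0.8 (SD, n = 9). The array has 1 probe set for Pax5, and all 3 low readings stayed above 7.01, the median of all named probe sets, below which a gene is called dim here. These values describe the choice of members and were not tested.

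Bank1, an adaptor protein of B cell receptor signalling and the other targeted gene, was not called. It read 9.16, 8.79 and 9.94 in the low-Pax5 leukemias. In the other 9 it ran from 7.26 through 9.52 to 11.09, so the groups overlapped. The difference, low minus other with genotype in the fit, was 0.21 log2 (SE 0.52, 95% interval -0.93 to 1.35, limma adjusted p = 1).

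Outside Pax5 the low group differed from the other leukemias mainly by genes that were higher. Of 19937 genes, 74 passed a limma adjusted p of 0.05 (0.371%): 70 were higher (0.351%) and 4 lower (0.0201%). Of the 70, 48 were at least 2-fold higher (0.241%), and no called gene was 2-fold lower (0%). At an unadjusted p under 0.05 the counts were 785 higher (3.94%) and 575 lower (2.88%). The median difference of the called higher genes was 1.57 log2, against -0.026 over all genes tested.

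Many of the 70 higher genes were dim in the other leukemias, as were many of all genes tested. In 47 of them (67.1%) the mean of the other leukemias lay under the dim level, against 10060 of all 19937 genes (50.5%), and in 46 the WT mean did so too, against 9693 of all genes; 12 were dim even in the low group. The 3 low arrays lay above all 9 others in 69 of the 70, which Gucd1 alone did not reach, against 1.29% of all genes with such a separation upward. These genes were called on the same arrays, so the separation follows largely from the call and adds no support. All 70 were higher in both genotypes, which the call also favours, and had a low-group mean above the WT mean. The highest of the other 9 arrays was most often Pax5 leukemia 6, for 37 of the 70, followed by Bank1/Pax5 leukemia 4 for 17.

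The number of calls depended on single arrays. Leaving out Bank1/Pax5 leukemia 1 left 7 calls and leaving out Bank1/Pax5 leukemia 5 left 14, whereas leaving out the third member, Pax5 leukemia 3, gave 136. Without Bank1/Pax5 leukemia 2, 3 or 6 the counts were 44, 36 and 41. Without Pax5 leukemia 1, 2, 4 or 5 they were 37, 46, 36 and 47, and without Pax5 leukemia 6 the count was 151. Only the fit without Bank1/Pax5 leukemia 4, with 96 calls, stayed within 1.5 times the count of all arrays. Each of these fits rests on 2 or 3 low-Pax5 arrays.

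The clearest single difference was Prss34, a serine protease of basophil granules. It read 9.06, 9.0 and 9.01 in the low-Pax5 leukemias. The other 9 ran from 6.11 through 6.45 to 6.78, and WT arrays from 6.54 to 7.32. The 3 low arrays were nearly equal and lay above every other array, WT included. The difference was 2.55 log2 (SE 0.13, 5.86-fold, adjusted p = 2.84e-05), with 2.5 within Bank1/Pax5 leukemia and 2.64 within Pax5 leukemia.

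Mcpt8, a second basophil granule protease, read 8.5, 8.54 and 8.22 in the low group. The other leukemias ran from 4.81 through 5.05 to 7.67, the last value being Bank1/Pax5 leukemia 3, which stood apart from the remaining 8 at 4.81 to 5.63. The groups did not overlap, and the difference was 2.88 log2 (SE 0.48, 7.38-fold, adjusted p = 0.0363). Hdc makes histamine, the mediator stored by basophils and mast cells. It read 10.65, 10.57 and 9.29 in the low group against 6.68 through 7.24 to 8.43 in the others, a difference of 2.83 log2 (SE 0.39, adjusted p = 0.0147). Its order among the others was unlike that of Mcpt8. Pax5 leukemia 6 had the highest Hdc reading, 8.43, and Bank1/Pax5 leukemia 3 the lowest, 6.68.

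A pair of chains of the high-affinity IgE receptor, by which basophils and mast cells bind IgE, were called as well, at dim levels. Fcer1a, the ligand-binding alpha chain, read 5.58, 5.47 and 5.6 in the low group and 4.92 to 5.12 in the others (difference 0.51, SE 0.06, adjusted p = 0.00771). Ms4a2, its beta chain, read 5.79, 5.6 and 5.53 against 5.09 to 5.27 (difference 0.44, SE 0.05, adjusted p = 0.0102). Every array of either gene lies under the dim level of 7.01, so the size of these differences is not well bounded.

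Innate pattern receptors were among the genes with the largest differences. Clec4e, known as Mincle, is a C-type lectin by which myeloid cells sense microbial glycolipids and dying cells. It read 10.05, 10.1 and 8.56 in the low group, 5.24 through 5.74 to 7.58 in the other leukemias and 5.09 to 6.11 in WT. Its difference of 3.42 log2 (SE 0.53, 10.7-fold, adjusted p = 0.0269) was the largest of the called genes. Clec4d, its partner lectin from the same gene cluster, read 8.26, 9.05 and 8.25 against 5.21 through 5.55 to 6.75 (difference 2.69, SE 0.36, adjusted p = 0.0147). Fcnb, ficolin B, a secreted lectin of the complement system made by myeloid cells, read 10.13, 9.74 and 9.76 against 6.39 through 6.87 to 8.98 (difference 2.89, SE 0.49, adjusted p = 0.0393).

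The other named genes of this set had the same order of arrays, with the 3 low-Pax5 leukemias above the 9 others. Ccr1, a receptor for inflammatory chemokines, read 9.6, 9.78 and 8.6 against 5.32 to 7.55 (difference 3.02, SE 0.43, adjusted p = 0.0179). Dhrs9, a short-chain dehydrogenase of retinol and steroid metabolism, read 9.63, 9.46 and 8.77 against 5.69 to 7.17 (difference 3, SE 0.32, adjusted p = 0.00621). Asprv1, a retroviral-like aspartic protease, read 10.41, 10.64 and 10.33 against 7 to 9.24 (difference 2.76, SE 0.46). Abca13, a lipid transporter of the ABC family, differed by 2.71 (SE 0.48), Gpr141, an orphan receptor, by 2.66 (SE 0.31) and the noncoding RNA Mirt2 by 2.51 (SE 0.29). Adjusted p for these 4 lay between 0.00771 and 0.0484.

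Further called genes, chosen here after their values were seen, include Cebpd, a C/EBP factor of the myeloid lineage (difference 0.79, SE 0.11), and Padi4, the enzyme that citrullinates histones in neutrophils (2.32, SE 0.35). Tnfsf13b encodes BAFF, a survival factor for mature B cells that myeloid cells make; it averaged 7.64 in the low group, 6.13 in the others and 6.35 in WT (difference 1.44, SE 0.13, adjusted p = 0.00181). Inhba, the activin A subunit, differed by 1.75 (SE 0.24) and Arg2, a mitochondrial arginase, by 2.28 (SE 0.27).

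**Figure D1:**
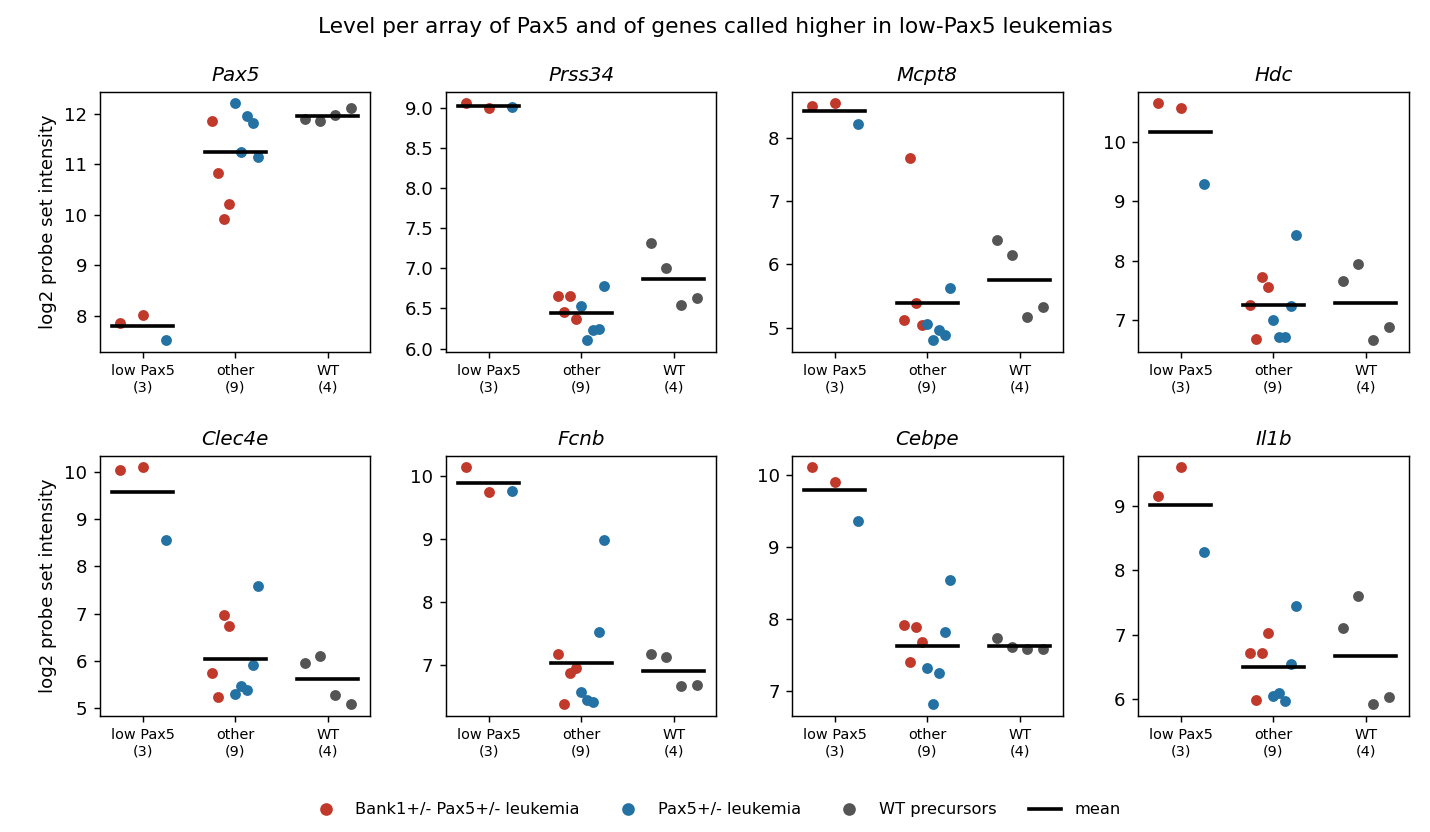
Log2 probe set intensity of Pax5 and 7 called genes in each array, by group (3 low-Pax5 leukemias, 9 other leukemias, 4 WT arrays); points are single arrays coloured by genotype and black lines are group means. For each of the 7 called genes the 3 low-Pax5 arrays sit above the 9 others; Prss34 reads 9.0 to 9.06 in the low group and at most 6.78 in the other leukemias.

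The 4 called lower genes changed far less. Aff3, a nuclear factor of the AF4 family expressed in lymphoid cells, read 9.42, 9.63 and 10.02 in the low group and 10.38 through 10.51 to 10.73 in the others, below a WT mean of 11.18 ± 0.05 (SD, n = 4). The log2 difference was -0.82 (SE 0.12, adjusted p = 0.0179). Dpp4, the surface peptidase CD26, read 11.35, 11.28 and 11.45 against 11.82 through 12.16 to 12.41 and differed by -0.76 (SE 0.13, adjusted p = 0.0431).

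Kcna3, the voltage-gated potassium channel of lymphocytes, read 9.78, 9.79 and 9.8 in the low group and 10.04 to 10.37 in the others (difference -0.45, SE 0.06, adjusted p = 0.0179). Caskin2, a scaffold protein, read 6.99, 7.15 and 6.88 against 7.27 to 7.63 (difference -0.45, SE 0.07, adjusted p = 0.0349). In all 4 genes the arrays did not overlap, a separation downward that 0.587% of all genes showed, and the difference was negative in both genotypes. Both traits follow largely from calling the genes on these same arrays. Dpp4, Kcna3 and Caskin2 had similar means in the other leukemias and in WT, at 12.13 and 12.13, 10.21 and 10.04, and 7.44 and 7.44.

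**Figure D2:**
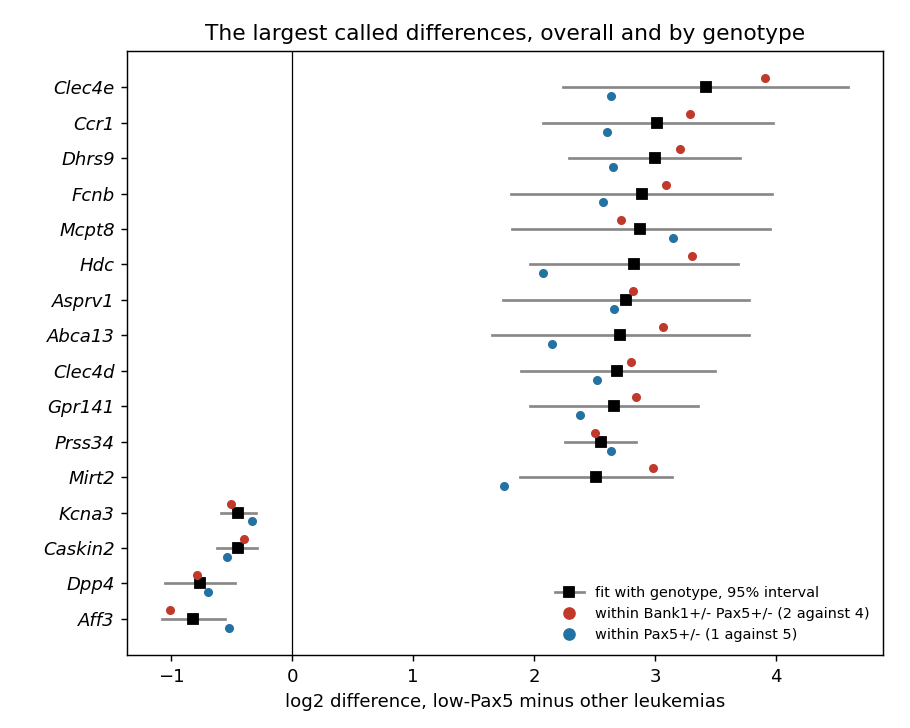
Log2 difference, low-Pax5 minus other leukemias, for the 12 called higher genes with the largest difference and the 4 called lower genes; squares are the fit with genotype and its 95% interval, circles the difference within Bank1+/- Pax5+/- (2 against 4 arrays) and within Pax5+/- (1 against 5). Both circles lie on the same side of 0 as the square for all 16 genes, from 3.42 for Clec4e to -0.82 for Aff3.

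Promoter sequence was read for the called genes because members of the C/EBP family, which drive granulocyte genes and bind sites of the form TTNNGCAA, and GATA factors, which drive basophil and mast cell genes and bind AGATAA, act through such sites. The 250 bases before the start site, from RefSeq on GRCm38.p6, were read for 60 of the 70 higher genes. Promoters on a single chromosome were left out before counting, and motifs were searched on both strands. TTNNGCAA was found in 6 of the 60 (10%), against 10% of 15613 tested genes and 9.6% of the 32851 promoters searched. AGATAA was found in 9 of the 60 (15.0%), against 9.9% and 10%. The first share equals the background, and neither was tested. Fcnb and Clec4e are shown as the called myeloid lectins that hold TTNNGCAA, and Prss34, Ms4a2 and Fcer1a as the called basophil genes that hold AGATAA, both choices made after their values were seen. Each runs 5′ to 3′ on the gene's strand, with the motif it was chosen for, or its reverse complement, in capitals.
Fcnb (chr2:28084879-28085128, minus strand): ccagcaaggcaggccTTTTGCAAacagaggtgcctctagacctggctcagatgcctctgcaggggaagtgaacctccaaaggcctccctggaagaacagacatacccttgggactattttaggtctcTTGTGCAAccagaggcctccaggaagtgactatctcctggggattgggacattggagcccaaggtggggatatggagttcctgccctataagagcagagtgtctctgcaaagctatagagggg
Clec4e (chr6:123289872-123290121, minus strand): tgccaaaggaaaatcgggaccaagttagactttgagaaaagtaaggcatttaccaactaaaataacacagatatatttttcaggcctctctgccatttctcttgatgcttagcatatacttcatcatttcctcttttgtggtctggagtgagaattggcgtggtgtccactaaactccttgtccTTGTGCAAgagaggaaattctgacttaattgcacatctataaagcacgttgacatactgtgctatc
Prss34 (chr17:25298144-25298393, plus strand): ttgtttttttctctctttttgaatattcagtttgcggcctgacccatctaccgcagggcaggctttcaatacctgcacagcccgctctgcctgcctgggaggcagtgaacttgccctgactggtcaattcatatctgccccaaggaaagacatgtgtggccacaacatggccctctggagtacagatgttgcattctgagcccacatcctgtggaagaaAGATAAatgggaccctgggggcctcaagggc
Ms4a2 (chr19:11623720-11623969, minus strand): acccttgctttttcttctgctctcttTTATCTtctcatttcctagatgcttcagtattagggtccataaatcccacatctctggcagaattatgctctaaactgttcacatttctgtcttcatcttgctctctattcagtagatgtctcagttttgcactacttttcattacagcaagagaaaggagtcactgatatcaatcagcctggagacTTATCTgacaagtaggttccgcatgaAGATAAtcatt
Fcer1a (chr1:173227230-173227479, minus strand): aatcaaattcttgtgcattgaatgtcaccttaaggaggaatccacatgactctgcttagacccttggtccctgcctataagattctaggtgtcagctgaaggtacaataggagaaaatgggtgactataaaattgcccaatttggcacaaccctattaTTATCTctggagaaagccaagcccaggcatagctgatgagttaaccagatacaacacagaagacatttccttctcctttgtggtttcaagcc

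In these sequences TTNNGCAA occurred 2 times before Fcnb and 1 time before Clec4e. AGATAA occurred 1 time before Prss34, 3 times before Ms4a2 and 1 time before Fcer1a. The Fcer1a sequence also holds 1 match of TTNNGCAA, left in lower case, and none of the other 4 holds the motif it was not chosen for. A match is a description of the letters, and no binding was measured.

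Gene lists describe which cell types and programs these genes belong to. Neutrophil and granule genes had the largest median difference of the 24 lists. Of 20 measured members, 3 were called higher (Il1b, Cebpe and Fcnb) and none lower, against 0.351% of all genes called higher. All 20 differences were above 0, as were 7714 of all 19937, and ran from 1.84 to 3.77, with a median of 3.13 against -0.026 over all genes. In 17 of 20 the low arrays lay above all others, which 1.29% of all genes did. Cebpe, the C/EBP factor of late granulocyte maturation, read 10.11, 9.9 and 9.36 in the low group against 6.83 through 7.69 to 8.55 (difference 2.09, SE 0.3, adjusted p = 0.0179). Il1b, the inflammatory cytokine interleukin-1 beta, read 9.16, 9.6 and 8.29 against 5.97 through 6.55 to 7.45 (difference 2.42, SE 0.34, adjusted p = 0.0166).

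The abundant granule genes had large differences with a wide spread and did not pass. S100a8, a calcium-binding alarmin, read 12.96, 12.99 and 12.83 in the low group, while the others ran from 7.79 through 10.96 to 12.82 (difference 2.64, SE 1, adjusted p = 0.562). Ngp, neutrophilic granule protein, read 13.28, 13.31 and 13.17 against 9.56 to 13.09, and Lcn2, the iron-siderophore binder lipocalin, 13.27, 13.57 and 12.91 against 8.95 to 12.73. Csf3r, the receptor for granulocyte colony-stimulating factor, read 10.27, 10.94 and 10.19 against 6.45 to 9.05 and just missed the threshold (difference 3.21, SE 0.58, adjusted p = 0.0514). Granule genes of early promyelocytes also differed without passing: Elane, neutrophil elastase, by 3.43 (SE 0.74) and Mpo, myeloperoxidase, by 3.39 (SE 0.76).

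As a level per array, the median of the 20 neutrophil genes was 12.14 in Bank1/Pax5 leukemia 1, 11.99 in Bank1/Pax5 leukemia 5 and 11.32 in Pax5 leukemia 3. In the other 9 it ran from 6.95 through 8.57 to 10.8. The highest of these was Pax5 leukemia 6, whose Pax5 level of 11.14 is not low. The WT precursor arrays read 9.3, 9.15, 7.29 and 6.88, so WT 1 and 2 carried more neutrophil signal than WT 3 and 4. Of the 70 called higher genes, 52 had both of WT 1 and 2 above both of WT 3 and 4, as did 2703 of all 19937 genes. In these bulk samples fewer or more cells of a type and less or more RNA per cell cannot be told apart.

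With the neutrophil level as a further covariate, a setting chosen after seeing the data, 1 gene remained called: Prss34, at a difference of 2.21 (adjusted p = 0.0158; 5.99e-06 to 0.133 over all its alternatives). In that fit Mcpt8 differed by 3.08, Dhrs9 by 1.65, Hdc by 1.3, Clec4e by 1.29, Cebpe by 0.82 and Fcnb by 0.75. Aff3 differed by -0.57 and Dpp4 by -0.34, and none of these genes was called. The covariate is built from genes that include Fcnb, Cebpe and Il1b and its level differs between the groups without overlap. Without Pax5 leukemia 6 and Bank1/Pax5 leukemia 3, the other leukemias with the highest neutrophil and basophil signal, also left out after seeing the data, 117 genes were called and the neutrophil list had 9 of 20 called higher. With Bank1/Pax5 leukemia 1 or 5 left out it had 0 of 20, and without Pax5 leukemia 6 it had 8 of 20.

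Mast cell, basophil and eosinophil genes were the only other list with calls. Of 11 measured members, 4 were higher (Prss34, Mcpt8, Fcer1a and Ms4a2) and none lower, against 0.351% of all genes called higher. All 11 differences were above 0, as were 7714 of all 19937, with a median of 0.52. In 5 of 11 the low arrays lay above all others, which 1.29% of all genes did. The list level was 7.23, 7.61 and 6.59 in the low group and 5.2 through 5.47 to 6.45 in the others, without overlap. The other 7 members did not pass, among them these: Prg2, an eosinophil granule protein, read 9.18, 9.89 and 6.88 against 6.08 to 9.32 (difference 1.47, SE 0.81), Epx, eosinophil peroxidase, differed by 0.75 (SE 0.3), and Cpa3, a mast cell carboxypeptidase, by 1.29 (SE 0.96). Gata2, a transcription factor of basophils, mast cells and stem cells, read 7.23, 7.61 and 7.23 against 6.9 to 8.04 (difference 0.11, SE 0.21). Without Bank1/Pax5 leukemia 1 this list kept 1 call.

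**Figure D3:**
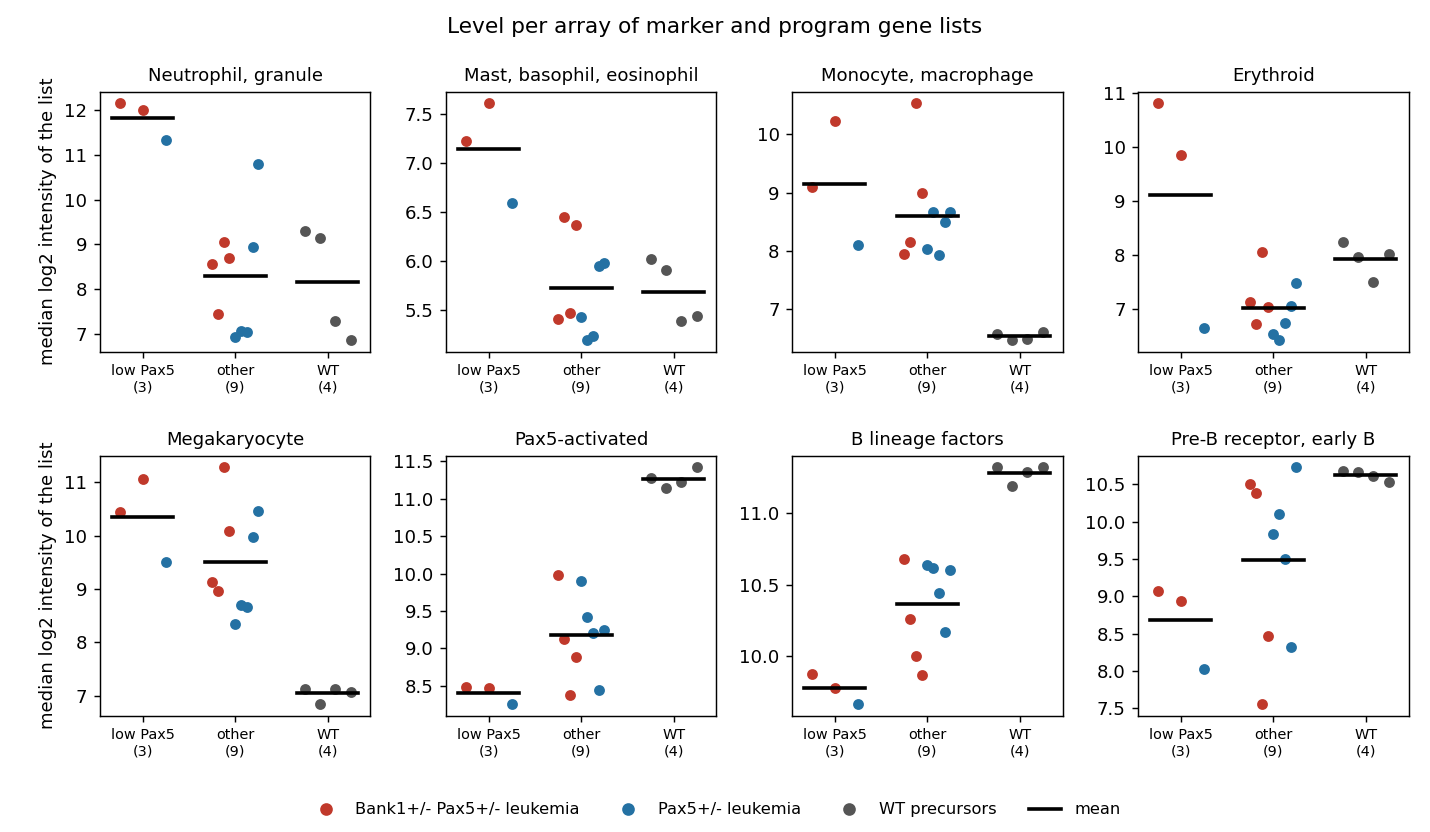
Level per array of 8 gene lists, as the median log2 intensity of the measured members, by group; points are arrays coloured by genotype and black lines group means. Neutrophil levels are 11.32 to 12.14 in the low-Pax5 leukemias and at most 10.8 in the others, while Pax5-activated genes lie at 8.26 to 8.48 in the low group, at 8.38 to 9.98 in the others and at 11.14 to 11.42 in WT.

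Monocyte and macrophage levels overlapped between the groups. None of 18 was called, the median difference was 0.18, and the low group's levels of 9.1, 10.22 and 8.1 lay within the range of the others, 7.93 through 8.5 to 10.53. Differences were above 0 for 10 of the 18 and below 0 for 8, beside 7714 and 12223 of all 19937 genes. Cx3cr1, Cd14 and F13a1, the members with the smallest p, were higher without passing. They differed by 0.8 (SE 0.23), 0.84 (SE 0.25) and 2.38 (SE 0.86). Ccr2, the chemokine receptor of inflammatory monocytes, read 8.27, 10.19 and 9.43 against 6.81 to 9.67 (difference 1.36, SE 0.62). Cd68, a lysosomal protein of macrophages, differed by -0.01 (SE 0.36, 95% interval -0.8 to 0.77).

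Erythroid genes separated the members from one another. The list level was 10.8 in Bank1/Pax5 leukemia 1 and 9.85 in Bank1/Pax5 leukemia 5, above all 9 others at 6.43 to 8.05, but 6.65 in Pax5 leukemia 3. Rhag, an ammonium channel of the red cell membrane, read 10.26, 9.05 and 5.35 in the same order against 4.8 through 5.15 to 6.8 (difference 2.62, SE 0.67, adjusted p = 0.204). Car1, the carbonic anhydrase of red cells, read 11.86, 10.64 and 6.15 against 6.18 to 8. None of the 10 erythroid genes was called. All 10 differences were above 0, as were 7714 of all 19937, with a median of 1.14. Megakaryocyte genes, 0 of 10 called, also had all 10 differences above 0, at a median of 0.55. Their levels of 10.45, 11.07 and 9.51 lay inside the range of the others, 8.35 to 11.28.

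The model asked whether the low-Pax5 difference itself differed between genotypes. This passed the test for 2 of 19937 genes (0.01%; 851, or 4.27%, at an unadjusted p under 0.05), and both were high in the Bank1/Pax5 members and not in Pax5 leukemia 3, as the erythroid level was. Cldn13, a claudin, read 9.2 and 8.2 in the Bank1/Pax5 members and 5.07 in Pax5 leukemia 3, with the others at 5.01 to 5.56; the difference was 3.25 within Bank1/Pax5 leukemia and -0.04 within Pax5 leukemia (interaction 3.3, SE 0.35, adjusted p = 0.039). Oosp1, an oocyte-secreted protein by name, read 6.73, 6.74 and 5.18 against 5.09 to 5.43 (interaction 1.6, SE 0.17, adjusted p = 0.039). Every Oosp1 reading lay under the dim level of 7.01, so it was high in the Bank1/Pax5 members only relative to the other arrays. A single Pax5 leukemia stands on 1 side of the interaction contrast and is assumed to vary like the rest. The part of erythroid signal in the interaction was not tested. Refitted without 1 array at a time, the count was 15 without Bank1/Pax5 leukemia 4, 13 without Bank1/Pax5 leukemia 5 and 6 without Pax5 leukemia 5. It was 0 without Bank1/Pax5 leukemia 3 or 6 or Pax5 leukemia 2, 4 or 6, and 1 without Pax5 leukemia 1.

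Dendritic cell genes split the members another way. The list level was 9.96 in Pax5 leukemia 3, 8.81 in Bank1/Pax5 leukemia 1 and 7.61 in Bank1/Pax5 leukemia 5, against 6.53 through 7.01 to 9.69 in the others, and 0 of 12 were called. Siglech, a lectin of plasmacytoid dendritic cells, read 10.9, 8.49 and 12.56 in the low group and 6.02 to 11.93 in the others. Ccr9, a chemokine receptor of lymphoid and plasmacytoid cells, read 9.92, 7.2 and 12.02 against 6.36 to 9.76. Flt3, the receptor of early lymphoid and dendritic progenitors, read 12.22, 9.82 and 11.52 against 7.53 through 11 to 11.31.

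No gene of the B lineage lists was called. Of 22 measured Pax5-activated genes, 0 passed in either direction; 17 differences were below 0, as were 12223 of all 19937, with a median of -0.72 against -0.026 over all genes. The list level was 8.48, 8.47 and 8.26 in the low-Pax5 leukemias, near the bottom of the other 9, which ran from 8.38 through 9.2 to 9.98, and all leukemias lay below WT at 11.14 to 11.42. Bank1/Pax5 leukemia 4, at 8.38, and Pax5 leukemia 5, at 8.44, were as low as the members although their Pax5 read 9.92 and 11.82.

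Single targets showed the same overlap. Cd79a, the signalling chain of the B cell receptor, read 10.85, 10.74 and 9.51 in the low group, while the others ran from 9.09 through 12.56 to 12.99 (difference -1.36, SE 0.75, adjusted p = 0.875). Blnk, the adaptor that links this receptor to its kinases, read 10.15, 9.54 and 6.23 against 7.52 through 9.81 to 11.36 (difference -1.63, SE 0.92, adjusted p = 0.883). Pou2af1, a coactivator of B cell genes, read 10.75, 10.67 and 9.82 against 10.39 through 11.42 to 11.88 (difference -0.93, SE 0.33, adjusted p = 0.478). Tnfrsf13c, the BAFF receptor, differed by -0.7 (SE 0.35) and Irf4, a factor of pre-B and plasma cell differentiation, by -0.84 (SE 0.33).

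**Figure D4:**
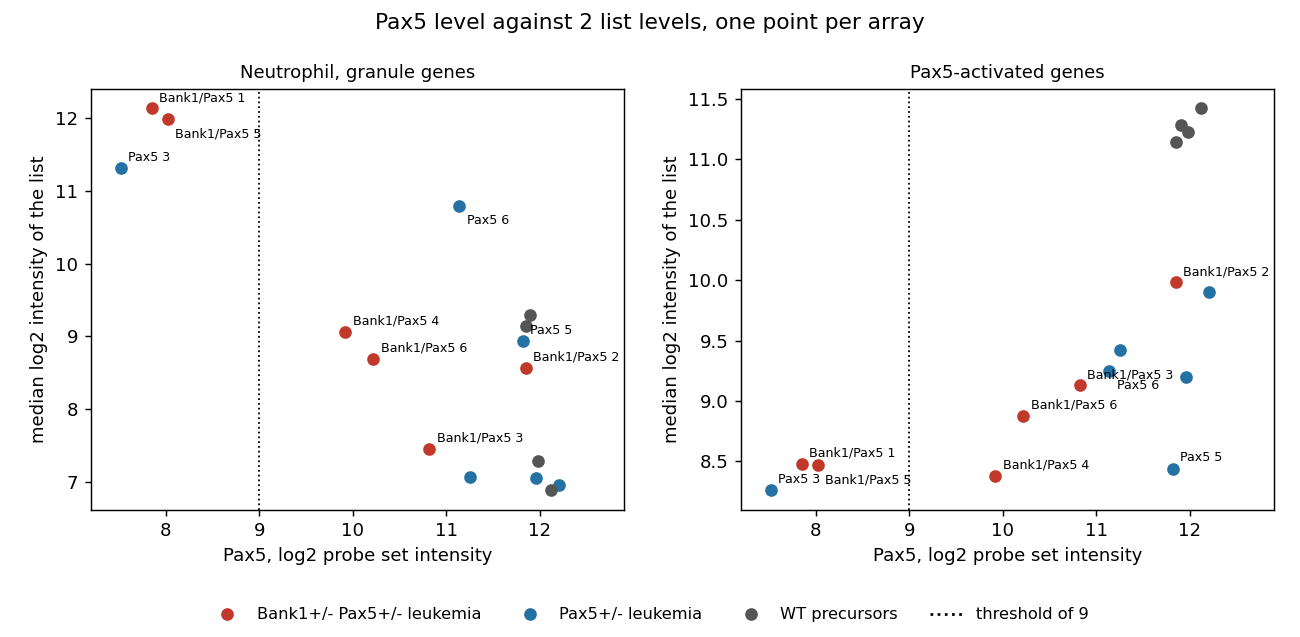
Pax5 log2 intensity (x axis) against the level of the neutrophil list and of the Pax5-activated list (y axes, median log2 intensity), 1 point per array, coloured by genotype, with the threshold of 9 as a dotted line. The 3 low-Pax5 arrays have neutrophil levels of at least 11.32 and Pax5-activated levels of at most 8.48, while Pax5 leukemia 6 combines a Pax5 level of 11.14 with a neutrophil level of 10.8.

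No B lineage transcription factor was called. Of 20, 17 differences were below 0, with a median of -0.52, beside 12223 of 19937 and -0.026 over all genes. The list level of 9.88, 9.78 and 9.67 touched the bottom of the other leukemias, 9.87 through 10.44 to 10.68. Ebf1, which acts with Pax5 in B cell commitment, averaged 9.89 in the low group, 11 in the others and 12.59 in WT (difference -0.87, SE 0.79). Spib, an ETS factor of B and plasmacytoid cells, read 10.21, 8.82 and 11.44 against 10.43 to 11.77 (difference -0.86, SE 0.37). Spi1, which encodes PU.1 and is shared by B and myeloid cells, was on the other side at 11.47, 11.82 and 11.22 against 10.45 to 11.43 (difference 0.58, SE 0.22, adjusted p = 0.559).

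Early B cell genes varied widely among the other leukemias. In the list of pre-B receptor, recombination and early B stage genes, 19 of 20 differences were below 0 with a median of -0.34, and 0 were called. Over all genes 12223 of 19937 were below 0, at a median of -0.026. Rag2, a subunit of the recombinase, read 5.65, 5.62 and 5.44 in the low group, dim in all 3. The others ran from 5.3 through 8.05 to 9.72, and Bank1/Pax5 leukemias 4 and 6 and Pax5 leukemia 5 were as dim, at 5.47, 5.3 and 5.45, with Pax5 leukemia 4 at 6.61. Vpreb3, a chaperone of the pre-B receptor, read 8.19, 8.99 and 7.28, with the same 3 other leukemias at 6.74, 7.62 and 7.71 and the remaining 6 at 11.49 to 12.7. Low readings of these genes therefore occurred with and without low Pax5.

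Genes that Pax5 is known to repress included 18 of 21 with a difference above 0, at a median of 0.53, and 0 passed. Over all genes 7714 of 19937 were above 0, at a median of -0.026. The list level was 10.16, 10.19 and 9.75 in the low group and 8.03 through 9.06 to 10.21 in the others, so the groups overlapped. Bank1/Pax5 leukemia 4, at 10.21, lay above all 3 members. Itgam, the myeloid integrin CD11b, read 10.91, 11.18 and 10.31 against 6.97 through 8.05 to 9.92 (difference 2.55, SE 0.6, adjusted p = 0.142). Cd33, a myeloid sialic acid receptor, read 10.98, 11.64 and 11.64 against 8.11 through 9.59 to 10.48 (difference 1.96, SE 0.54, adjusted p = 0.254). These were the 2 of 21 members whose arrays did not overlap, a separation upward that 1.29% of all genes showed. Both are also expressed by neutrophils. With the neutrophil level as a covariate, the setting chosen after seeing the data, Itgam differed by 0.02 and Cd33 by 0.57, neither of them called. That level differs between the groups without overlap, so this fit cannot tell low Pax5 and neutrophil signal apart. The cause of these differences was not tested. Cd28, a T cell costimulator, read 6.97, 7.55 and 7.52 against 5.55 through 5.9 to 7.01 (difference 1.27, SE 0.27, adjusted p = 0.0932). Flt3, Notch1 and Csf1r, receptors of progenitors and myeloid or T cells, differed by 0.93 (SE 0.85), 0.63 (SE 0.39) and 0.72 (SE 0.47).

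The remaining programs had no called gene. The median difference was -0.16 over 20 genes of B cell receptor signalling, -0.43 over 18 mature B cell and antigen presentation genes, -0.17 over 18 genes of the IL-7 receptor and survival, 0.19 over 19 glycolysis genes, -0.13 over 20 MYC and ribosome biogenesis genes, -0.12 over 18 leukemia suppressor genes and 0.1 over 16 interferon genes. Of 28 cell cycle genes 25 were above 0, beside 7714 of all 19937, at a median of 0.26. Their list level of 10.67, 10.62 and 10.51 in the low group nevertheless lay below the median of the others. The others ran from 8.98 through 10.72 to 10.88, with Bank1/Pax5 leukemias 4 and 6 at 8.98 and 9.75. Among the cell cycle genes Mki67, a marker of dividing cells, read 12.3, 11.95 and 12 against 10.55 through 11.95 to 12.14. Its difference was 0.8 within Bank1/Pax5 leukemia and 0.02 within Pax5 leukemia. Hk3, a hexokinase of myeloid cells, was the glycolysis gene whose arrays did not overlap: 9.36, 9.91 and 8.29 against 6.2 to 8.08 (difference 2.14, SE 0.44, adjusted p = 0.0841). Such a separation upward was shown by 1.29% of all genes. Bach2, a repressor that restrains plasma cell fate and acts as a leukemia suppressor, read 8.25, 8.08 and 8.29 against 7.79 through 9.18 to 10.62. Myc itself read 11.32, 11.41 and 10.88 against 11.08 through 11.54 to 12.04.

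Markers of T cells (median 0.09, 15 genes), NK cells (-0.08, 14 genes), plasma cells (0.17, 10 genes), stroma and endothelium (-0.34, 18 genes) and stem cells (0.12, 12 genes) had no calls either. The interferon level was 8.82 and 9 in the Bank1/Pax5 members and 7.06 in Pax5 leukemia 3, within 6.7 to 10.73 of the others. Y-linked genes and Xist showed that Bank1/Pax5 leukemia 5 read as female and the other 2 members as male, while Bank1/Pax5 leukemia 3, Pax5 leukemia 2 and all 4 WT arrays read as female. With the Y-linked level as a covariate 64 genes were called, 60 of them among the 74.

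Within Bank1/Pax5 leukemia alone, 2 low arrays against 4, 38 genes were called, 23 of them among the 74. Within Pax5 leukemia alone, 1 array against 5, 22 genes were called, none of them among the 74. Across the 21789 probe sets naming 1 gene, Pax5 included, the 3 low-Pax5 arrays correlated at r of 0.966 to 0.986 with each other. They correlated at 0.941 to 0.979 with the other leukemias, which correlated at 0.927 to 0.983 among themselves. WT arrays correlated at 0.994 to 0.997. Correlations of the 3 members with the 9 others thus lay within the range found among the 9. All are across probe sets, which are not independent.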

How the data were processed

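Per the submitters' processing notes the authors summarised the 16 arrays by RMA in oligo (no versions are stated). Their deposited log2 intensities were used as they are, with array medians of 6.58 to 6.71 and values of 3.82 to 14.3; precision is limited by how many arrays there are. Probe sets naming 1 gene numbered 21789 of 35556 (1621 named several, 12146 none), and 91 kept an old symbol. Where a gene had several probe sets (999 genes), the brightest on average was kept, which gave 19937 genes besides Pax5. The 12 leukemias were fitted in limma 3.58.1 (R 4.3.3) with genotype and low Pax5 as terms and empirical Bayes moderation. A call is a two-sided adjusted p (Benjamini-Hochberg across the 19937 genes) under 0.05, SE is the moderated standard error, and p-values measure the spread between these arrays. The script was tested on simulated data. Members and lists were chosen with earlier results of these data known, so lists are described by counts and medians. Named by rule were Pax5 and Bank1, up to 12 top calls per direction by size (no segments, uncharacterised genes or small RNAs), up to 4 members per list by p, the 3 brightest markers per other cell type and called interactions. Alternatives covered filters, probe sets, normalization, weights, covariates and arrays.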

Additional observations from a re-analysis of the deposited data

Results flagged for a closer look

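An array was set apart when its gap to the nearest of its group was large for the group's range, by Dixon's 95% value. This was applied to 140 groups of values, those of 47 genes and of the gene lists in the other leukemias and in WT, and 9 were set apart; chance gives about 1 in 20.

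Among the 9 other leukemias, Pax5 leukemia 6 read 8.98 for Fcnb, with the remaining 8 at 6.39 to 7.53, and 7.99 for Abca13, with the rest at 5.48 to 6.48. Bank1/Pax5 leukemia 3 read 7.67 for Mcpt8, against 4.81 to 5.63. These arrays narrow the gap to the low-Pax5 group, whose lowest readings are 9.74, 8.33 and 8.22 for the 3 genes.

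Bank1/Pax5 leukemia 4, the array next to the Pax5 threshold, read 6.8 for Rhag, against 4.8 to 5.41, had a level of 9.37 for MYC and ribosome biogenesis genes, against 9.93 to 10.49, and of 10.53 for monocyte and macrophage markers, against 7.93 to 8.99. Bank1/Pax5 leukemia 6 had an interferon level of 10.73, against 6.7 to 8.66.

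WT 2 read 7.27 for Caskin2, against 7.48 to 7.51 in the other 3 WT arrays, and 6.36 for the stromal and endothelial level, against 6.46 to 6.48.

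The interaction of low Pax5 with genotype passed the test for Cldn13 (3.3 log2) and Oosp1 (1.6 log2), each with limma adjusted p = 0.039, and 1 side of it is a single array, Pax5 leukemia 3. Over the alternatives run, adjusted p for Cldn13 lay between 9.4e-05 and 0.929 and for Oosp1 between 0.00876 and 0.925, so both calls were lost under some of them. Both genes fell under the median level filter and were not tested there.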

How the results depend on the processing

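The count of 74 calls kept within 1.5 times under the median level filter (69), the mean of probe sets (74), single probe sets (74), cyclic loess (70), median centring (72), trend with robust moderation (92) and the Y-linked covariate (64). It rose to 232 with array weights, 113 without the genotype term, 224 over all 16 arrays and 117 without Pax5 leukemia 6 and Bank1/Pax5 leukemia 3 together, a setting chosen after seeing the data. It dropped to 48 with a 2-fold minimum, 21 with the Pax5 level as a numeric term, 15 with the non-B cell marker covariate, 38 in Bank1/Pax5 arrays, 22 in Pax5 arrays and 1 with the added neutrophil covariate. Without 1 array it ran from 7 to 151. With the replicate number as a block it was 0 (1348 at an unadjusted p under 0.05); the cause was not tested. Same-numbered arrays correlated in their deviations at -0.38 to 0.12 and none was closest to its own number. Whether arrays of the same number share a batch or a pairing was not tested.

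The interaction count of 2 was 0 under the median level filter, cyclic loess and the replicate block, 5 with trend and robust moderation and 6 with array weights, and ran from 0 to 15 without 1 array; without Pax5 leukemia 3 it could not be fitted.

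Of 137 named genes under 29 alternatives, 3560 values kept direction and call, 202 kept direction and lost the call, and 32 gained one. Another 162, in 63 genes, changed sign without a call. Most named genes were not called and could lose no call, so the 3560 are largely uncalled values. Among the called genes, losses ran from 2 of 29 alternatives for Prss34 to 19 of 29 for Abca13 and Caskin2. Mcpt8 and Dpp4 lost the call in 17, Fcnb in 16, and Clec4e and Asprv1 in 15. The 1 called reversal was Pf4, at -1.66 with the non-B cell covariate, which contains Pf4. Prss34 lost its call in the replicate block (adjusted p = 0.133) and in Pax5 arrays alone (0.0554; 5.99e-06 to 0.133 over its alternatives). The 3 low-Pax5 arrays and dim levels limit the precision.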
